A study of Mus musculus with 8 samples.

Results

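The comparison described here set interferon gamma (IFN-γ) against medium after 4 hours of culture, in dendritic cells that carry CD8 and were purified from mouse spleen. It rests on 4 of the 8 arrays of the study: the arrays titled IFN and Control at 4 hours, numbered 1 and 2 in each group, a number by which they were paired in a second fit. The donors were female DBA/2J mice, 60 days old, that had received 10 µg of Flt3-L, the ligand of the receptor Flt3, for 9 days, so that all groups carry this treatment. One group was kept in medium alone and the other in medium with 200 U/ml of mouse IFN-γ. The remaining 4 arrays hold the same pair of conditions at 16 hours, and they entered the estimate of the spread. Total RNA was labelled and hybridised to the Affymetrix array MG-U74Av2, and each value is the intensity of 1 probe set, a group of short probes for 1 transcript. The labels do not say whether the arrays of a group stem from different animals or cultures. The p-values therefore measure only how far arrays differ from each other, which may be technical, and 2 arrays a group give low precision. In RNA from bulk cells, fewer cells of a type and less RNA per cell cannot be told apart.

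IFN-γ is a cytokine of T cells and natural killer cells. Its receptor activates the kinases JAK1 and JAK2, which act on transcription factors of the STAT family, and promoters of target genes often carry a palindromic DNA element called GAS. Early target genes include the transcription factor Irf1, which binds the interferon-stimulated response element (ISRE) of further genes, and the inhibitor Socs1, which acts back on the kinases. In dendritic cells the cytokine is known for raising chemokines, antigen processing, GTPases that attack vacuoles of intracellular microbes, and the tryptophan-degrading enzyme Ido1, for which the title of the study calls these cells competent.

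After 4 hours, 32 of 12422 probe sets (0.258%) were higher with IFN-γ and 0 (0%) were lower at an adjusted p under 0.05 (limma, Benjamini-Hochberg adjustment over all probe sets). At an unadjusted p under 0.05 there were 330 higher and 169 lower. The 32 comprise 28 probe sets of 26 named genes and 4 with no name or several names. Of them, 18 were raised by at least 2-fold, and on all 32 both IFN-γ arrays lay above both medium arrays. With the replicate number as a block, a fit that compares arrays of the same number, 135 probe sets (1.09%) were higher and 22 (0.177%) lower, and all 32 were among the 135. Read on the brightest probe set of each gene, 23 of 8251 genes (0.279%) were higher, and with the block 71 (0.861%) were higher and 18 (0.218%) lower; in 15% of all genes both IFN-γ arrays lay above both medium arrays, and in 19.2% below. Below, a gene is said to have risen or fallen where it passed without the block, and where it passed with the block alone that is stated, with the adjusted p of both fits. The count of 32 depended on each 4-hour array: it was 8 and 10 without the first and the second medium array, and 9 without either IFN-γ array.

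**Figure D1:**
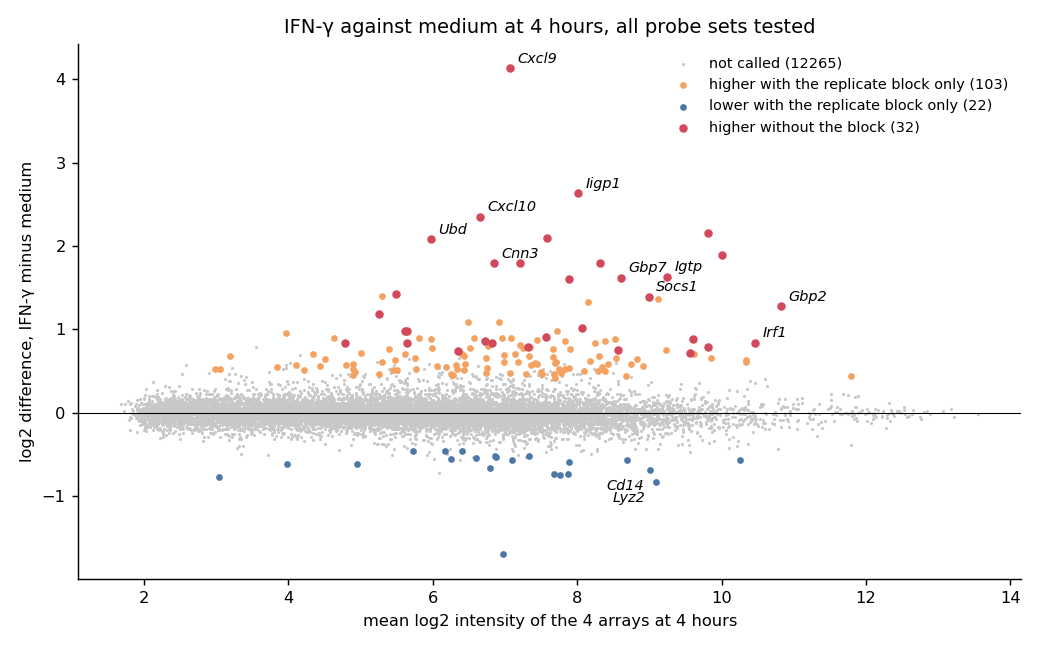
Each point is 1 of the 12422 probe sets, with its mean log2 intensity on the 4 arrays at 4 hours on the x axis and the log2 difference, IFN-γ minus medium, on the y axis; colours give the calls at an adjusted p under 0.05. The 32 probe sets called higher reach a difference of 4.13 at Cxcl9, while no probe set was called lower without the replicate block.

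A measure of RNA and labelling quality differed between the groups compared. The ratio of 3' to 5' signal on the control probe sets for Actb was 2.04 and 2.20 in medium at 4 hours, against 1.47 and 1.65 with IFN-γ. That for Gapdh was 1.14 and 1.31 in medium, against 0.88 and 0.92. The 16-hour arrays lay between 1.57 and 1.68 for Actb and between 0.83 and 0.91 for Gapdh, so the medium arrays at 4 hours stand apart from the other 6 in both. Their part in the results below was not tested. As a further description, 27 of the 32 probe sets had both IFN-γ arrays above all 4 medium arrays of 4 and 16 hours, against 675 (5.43%) of all probe sets. All 32 already lay above both medium arrays of 4 hours, so part of this condition was met by the call. The share over all probe sets is therefore not a like base. Unspecific signal was read from 15 antisense control probe sets, whose median lay between 44.9 and 55.1 on the 4 arrays, and 9 of the 32 probe sets lay below it in medium. The size of a rise from below that level is uncertain.

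Among the genes of IFN-γ signalling, the target Irf1 and the inhibitor Socs1 rose, whereas the receptor chains and kinases did not pass. Irf1, the transcription factor that acts on ISRE sequences, had intensities of 1036 and 1081 on the medium arrays against 1866 and 1911 on the IFN-γ arrays, a log2 difference of 0.84 (SE 0.10, adjusted p = 0.0123). The arrays of each group lay close together and far from the other group. Socs1, which binds and blocks JAK kinases, read 346 and 286 on the medium arrays against 989 and 690.0 on the IFN-γ arrays, a log2 difference of 1.39 (SE 0.18, adjusted p = 0.0141). The array numbered 1 was the higher one in both groups, and the lower IFN-γ array was still well above both medium arrays. Of 5 measured SOCS genes Socs1 alone passed, and Socs3 differed by 0.32 (adjusted p = 1) and Cish by 0.27 (adjusted p = 1). The median log2 difference of the 5 was 0.27, beside -0.01 over all 8251 genes.

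None of 15 measured genes of the receptor, its kinases and the STAT family passed with or without the block, and their median log2 difference was 0.03. The receptor chain Ifngr1, which binds the cytokine, read 129 and 139 on the medium arrays against 138 and 148 on the IFN-γ arrays, and Ifngr2, the chain that signals with it, read 115 and 120.3 on the medium arrays against 103 and 134 on the IFN-γ arrays. Their groups overlapped. The 95% intervals of the log2 difference were -0.20 to 0.38 for Ifngr1, -0.31 to 0.30 for Ifngr2, -0.20 to 0.26 for the kinase Jak1 and -0.64 to 0.64 for Jak2. Stat3, Stat5b and Tyk2 had IFN-γ arrays above both medium arrays, with log2 differences of 0.28, 0.36 and 0.36 (adjusted p of 0.882, 0.698 and 0.961). Of 7 interferon regulatory factors, a second one, Irf8, needed for the CD8+ dendritic lineage, passed with the block. It read 1043 and 1047 on the medium arrays against 1594 and 1591 on the IFN-γ arrays, a difference of 0.61 (SE 0.10, adjusted p = 0.0612, and adjusted p = 0.00892 in the block fit). Irf3, Irf4, Irf5, Irf7 and Irf9 differed by between -0.12 and 0.19.

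The largest rise on the array was that of Cxcl9, a chemokine that draws activated T cells through the receptor CXCR3. Its intensities were 30.4 and 34.05 on the medium arrays against 519 and 615 on the IFN-γ arrays, a log2 difference of 4.13 (SE 0.22, adjusted p = 0.000164), or 17.6-fold. Both medium arrays lay below the antisense controls and both IFN-γ arrays far above. Cxcl10, which acts on the same receptor, read 43.3 and 46.04 on the medium arrays against 207 and 250.1 on the IFN-γ arrays, a log2 difference of 2.35 (SE 0.16, adjusted p = 0.000278), also from below the antisense level in medium. These were the members called among 10 measured CXC chemokines and Cxcr3, whose median difference was 0.04. Over all genes 0.279% were called higher. Cxcr3 itself, the receptor, read 192 and 177 on the medium arrays against 191 and 190.0 on the IFN-γ arrays, with overlapping groups, and Cxcl1, a chemokine for neutrophils, differed by -0.05 (adjusted p = 1).

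Of 16 CC chemokines and their relatives, 0 were called without the block and 2 were lower with it, against 0.218% of all genes. Ccl9 read 138 and 145 on the medium arrays against 92.6 and 103 on the IFN-γ arrays, a difference of -0.53 (SE 0.11, adjusted p = 0.15, and adjusted p = 0.0266 in the block fit). In medium it was at 373 and 355 after 16 hours, so that its level with IFN-γ lay below all 4 medium arrays. Cx3cl1, a membrane-bound chemokine, differed by -0.46 (SE 0.12, adjusted p = 0.323, and adjusted p = 0.0497 in the block fit), and its dimmer probe set, above the antisense controls, by 0.03 (adjusted p = 1). Ccl22, which mature dendritic cells secrete to draw regulatory T cells, read 1209.9 and 1243 on the medium arrays against 954 and 1026 on the IFN-γ arrays, a difference of -0.31 that did not pass in either fit (adjusted p = 0.697, and adjusted p = 0.204 in the block fit). Of 13 chemokine receptors 0 passed in either fit, and their differences ran from -0.37 to 0.29.

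The immunity-related GTPases, which coat and disrupt vacuoles of intracellular microbes, rose as a group: 4 of 5 measured members were called, and all 5 with the block. Over all genes the share called higher was 0.279% (23 of 8251), and 0.861% with the block. Iigp1 read 92.2 and 117 on the medium arrays against 604 and 689 on the IFN-γ arrays, a log2 difference of 2.63 (SE 0.18, adjusted p = 0.000303), and its dimmer probe set rose by 2.10. Irgm1, one of the members that regulate the others, read 79.6 and 78.5 on the medium arrays against 268 and 281 on the IFN-γ arrays, a difference of 1.80 (SE 0.19, adjusted p = 0.00496). Irgm2 read 151 and 193 on the medium arrays against 569 and 617 on the IFN-γ arrays, a difference of 1.79 (SE 0.17, adjusted p = 0.00239). Igtp, also known as Irgm3, read 337 and 351 on the medium arrays against 1052 and 1084 on the IFN-γ arrays, a difference of 1.63 (SE 0.14, adjusted p = 0.00165). Ifi47, with 330.1 and 367 on the medium arrays against 843 and 950.3 on the IFN-γ arrays, passed with the block alone, at a difference of 1.36 (SE 0.24, adjusted p = 0.0704, and adjusted p = 0.000894 in the block fit). In every member both IFN-γ arrays exceeded all 4 medium arrays of both times. A probe set that carries several gene names in the annotation, and is therefore left unnamed, rose by 1.89 (SE 0.20, adjusted p = 0.00496).

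The guanylate-binding proteins, larger GTPases that act in the same defence, were also higher, with 3 of 4 measured members called and all 4 with the block. Gbp2, the brightest, read 1132 and 1213 on the medium arrays against 2724 and 2959 on the IFN-γ arrays, a log2 difference of 1.28 (SE 0.14, adjusted p = 0.00502). Gbp7 read 197 and 252 on the medium arrays against 621 and 754 on the IFN-γ arrays, a difference of 1.62 (SE 0.21, adjusted p = 0.0137). Gbp2b, below the antisense controls in medium, read 25.8 and 29.5 on the medium arrays against 71.4 and 76.8 on the IFN-γ arrays, a difference of 1.42 (SE 0.22, adjusted p = 0.0464). Gbp3 missed the threshold, with 169 and 189 on the medium arrays against 425 and 476 on the IFN-γ arrays and a difference of 1.33 (SE 0.21, adjusted p = 0.0515, and adjusted p = 0.000745 in the block fit). The median difference was 1.38 among these 4 and 1.79 among the 5 immunity-related GTPases. The count of 3 fell to 0 when any 1 of the 4-hour arrays was left out.

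**Figure D2:**
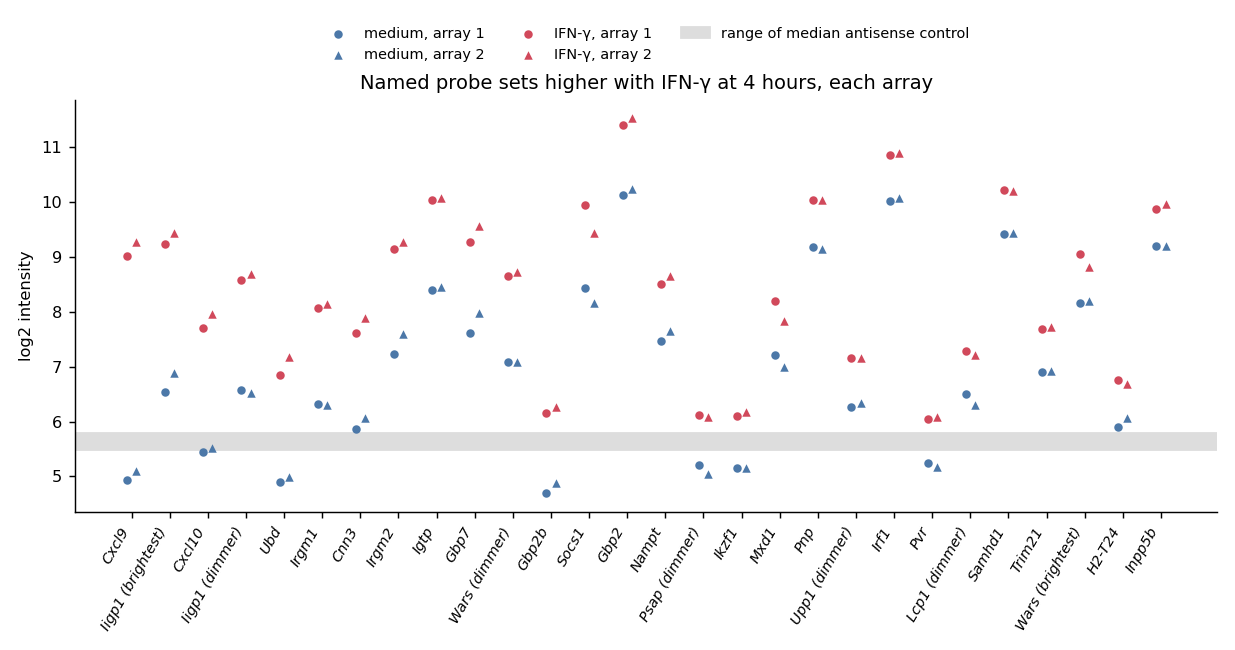
Log2 intensity of each named probe set called higher at 4 hours on the 4 arrays compared, ordered by the size of the difference; circles are arrays numbered 1, triangles arrays numbered 2, and the grey band spans the median antisense control of the 4 arrays. In all 28 probe sets both IFN-γ arrays lie above both medium arrays, and the medium arrays of Cxcl9, Ubd, Gbp2b, Psap, Ikzf1 and Pvr lie below the band.

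Genes that supply peptides to MHC class I were higher in part, while MHC molecules themselves did not move together. Of 12 genes of peptide supply, Ubd rose, and Tap1 passed with the block. Ubd, a ubiquitin-like protein that targets others to the proteasome, read 29.6 and 31.5 on the medium arrays against 116 and 145 on the IFN-γ arrays, a log2 difference of 2.08 (SE 0.17, adjusted p = 0.0011). Tap1, a subunit of the peptide transporter, read 1102 and 973 on the medium arrays against 1680.0 and 1533 on the IFN-γ arrays, a difference of 0.63 (SE 0.13, adjusted p = 0.132, and adjusted p = 0.0266 in the block fit), while its dimmer probe set, below the antisense controls, differed by -0.18. For Tapbp the probe sets disagreed: the brightest differed by 0.28 and passed in neither fit. A dimmer one, above the antisense controls, read 509 and 427 on the medium arrays against 841 and 730 on the IFN-γ arrays. It differed by 0.75 (SE 0.13, adjusted p = 0.0636, and adjusted p = 0.0057 in the block fit), and the remaining one by -0.05. The immunoproteasome subunits Psmb9 and Psmb10 differed by 0.32 and 0.27 (adjusted p of 0.877 and 0.911), and Psmb8 by 0.12 (adjusted p = 1). In 8 of the 12 both IFN-γ arrays lay above both medium arrays, against 15% of all genes. The median over the list was 0.20. Constitutive proteasome subunits, 21 in number, had a median of 0.05, and 0 passed in either fit.

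Of 10 measured MHC class I genes, the nonclassical H2-T24 alone was called, with 59.7 and 67.04 on the medium arrays against 109 and 103 on the IFN-γ arrays and a log2 difference of 0.74 (SE 0.12, adjusted p = 0.0455). In medium at 16 hours it was at 113 and 126, so its IFN-γ arrays at 4 hours were not above all medium arrays. The classical heavy chains H2-K1 and H2-D1 were among the brightest signals, at 5307 and 5415 on the medium arrays against 5298 and 5275 on the IFN-γ arrays for H2-K1, and differed by -0.02 and 0.03. Their 95% intervals were -0.27 to 0.23 and -0.21 to 0.27, and that of B2m, their shared light chain, was -0.28 to 0.29. Of 16 genes of MHC class II and its processing 0 passed in either fit, and differences ran from -0.18 to 0.14. Ciita, the master regulator of class II, read 129 and 133 on the medium arrays against 135 and 145 on the IFN-γ arrays, a difference of 0.09 with an interval of -0.14 to 0.33.

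Genes best known from type I interferon responses formed the broadest set of small differences. Of 27 measured, 2 rose (Samhd1 and Trim21), 12 were higher with the block, and 0 were lower in either fit. Over all genes 0.279% rose, and 0.861% were higher with the block. Their median log2 difference was 0.42, beside -0.01 over all genes. In 22 of them (81.5%) both IFN-γ arrays lay above both medium arrays, against 15% of all genes, and in 0 did both lie below. Samhd1, an enzyme that degrades deoxynucleotides, read 684 and 687 on the medium arrays against 1189 and 1177 on the IFN-γ arrays, a difference of 0.79 (SE 0.11, adjusted p = 0.0188). Trim21, a cytosolic antibody receptor, read 120.4 and 121 on the medium arrays against 207 and 212 on the IFN-γ arrays, a difference of 0.79 (SE 0.11, adjusted p = 0.0188). The arrays of a group nearly coincided in both genes. Their dimmer probe sets differed by -0.02 for Samhd1, below the antisense controls, and by 0.31 for Trim21 (adjusted p = 0.757). The count of 2 became 0 when any 1 of the 4-hour arrays was left out, and 7 when either IFN-γ array of 16 hours was.

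Those that passed with the block alone include Ifit2, which binds viral RNA, with 80.96 and 84.8 on the medium arrays against 171 and 183 on the IFN-γ arrays and a log2 difference of 1.09 (SE 0.18, adjusted p = 0.0542, and adjusted p = 0.00152 in the block fit). Its medium level at 16 hours was 131 and 186, which overlaps the IFN-γ arrays of 4 hours. Isg15, a ubiquitin-like modifier, read 741 and 743 on the medium arrays against 1167 and 1170.5 on the IFN-γ arrays, a difference of 0.66 (SE 0.14, adjusted p = 0.15, and adjusted p = 0.018 in the block fit), and stood at 503 and 552 in medium at 16 hours, below its 4-hour medium level. Adar, which edits double-stranded RNA, differed by 0.70, Ifit1 by 0.70, Pml, the scaffold of nuclear bodies, by 0.68, and Ifit3 by 0.61. Their adjusted p was 0.0562, 0.215, 0.0765 and 0.172, and 0.00451, 0.011, 0.0127 and 0.0147 in the block fit. Ifi204, a DNA sensor, differed by 0.86 (SE 0.16, adjusted p = 0.106, and adjusted p = 0.00687 in the block fit), and its dimmer probe sets, below the antisense controls, by 0.37 and 0.01. Mx1, an antiviral GTPase, read 174 and 175 on the medium arrays against 217 and 239.8 on the IFN-γ arrays and did not pass in either fit (difference 0.39, adjusted p = 1). The interferons themselves were low: Ifnb1 read 20.3 and 19.5 on the medium arrays against 21.1 and 20.3 on the IFN-γ arrays, below the antisense controls, and of 11 genes of the type I interferons, their receptor and Ifng 0 passed in either fit.

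**Figure D3:**
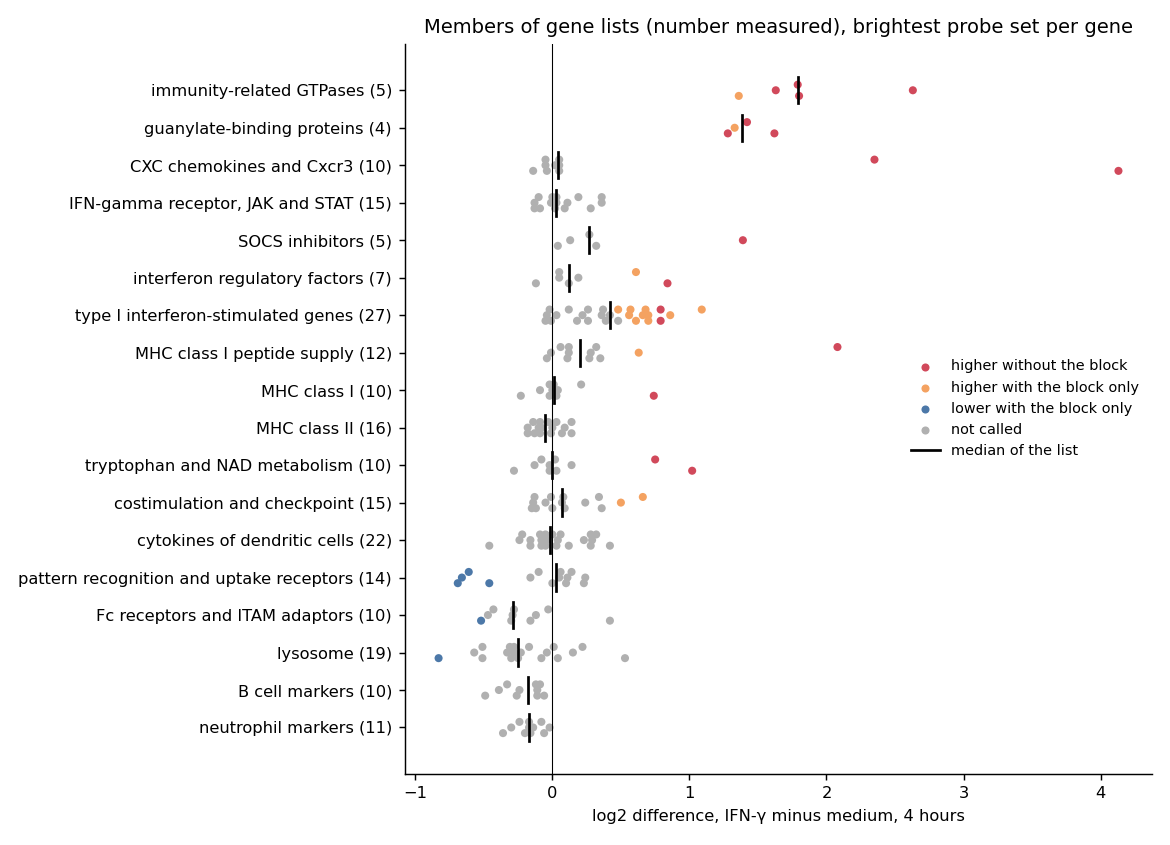
Log2 difference at 4 hours of every measured member of 18 gene lists, 1 point per gene on its brightest probe set, with the number measured in brackets and a black line at each list's median; colours give the calls with and without the replicate block. The immunity-related GTPases and guanylate-binding proteins lie wholly above 1, type I interferon-stimulated genes have a median of 0.42, and the B cell and neutrophil marker lists lie wholly below 0.

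In tryptophan and NAD metabolism 2 of 10 measured genes rose, against 0.279% of all genes. Ido1, which opens the breakdown of tryptophan, gave a weak and divided signal. Wars, the enzyme that charges tRNA with tryptophan, read 288 and 294 on the medium arrays against 534 and 449 on the IFN-γ arrays on its brightest probe set, a log2 difference of 0.75 (SE 0.12, adjusted p = 0.0436). A dimmer one read 136 and 136 on the medium arrays against 403 and 422 on the IFN-γ arrays, a difference of 1.60 (SE 0.16, adjusted p = 0.00439), and the remaining one differed by 0.55 (SE 0.11, adjusted p = 0.139, and adjusted p = 0.0262 in the block fit). All 3 were higher with IFN-γ on both arrays. Nampt, the rate-limiting enzyme of NAD salvage, read 176 and 201 on the medium arrays against 363 and 404 on the IFN-γ arrays, a difference of 1.02 (SE 0.16, adjusted p = 0.0408). The brightest probe set of Ido1 read 50.8 and 50.9 on the medium arrays against 49.1 and 47.3 on the IFN-γ arrays, at the level of the antisense controls, with a 95% interval of -0.40 to 0.25. Its other probe set, dimmer still, read 15.7 and 16.1 on the medium arrays against 26.4 and 25.7 on the IFN-γ arrays, a difference of 0.71 (SE 0.11, adjusted p = 0.0518, and adjusted p = 0.00511 in the block fit). Both lie at or below the unspecific level, so no size is given to the response of Ido1.

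Enzymes of nucleoside salvage were among the calls outside the lists. Pnp, a purine nucleoside phosphorylase, read 579 and 563 on the medium arrays against 1052 and 1052 on the IFN-γ arrays, a log2 difference of 0.88 (SE 0.11, adjusted p = 0.0137), and its medium arrays at 16 hours lay between the groups at 844 and 908. Upp1, a uridine phosphorylase, rose by 0.86 on 1 probe set (76.8 and 80.9 on the medium arrays against 143 and 143 on the IFN-γ arrays), while its brightest differed by 0.07 (adjusted p = 1). Ppa1, an inorganic pyrophosphatase, passed with the block alone, at 347 and 349 on the medium arrays against 489.7 and 563 on the IFN-γ arrays and a difference of 0.59 (SE 0.11, adjusted p = 0.112, and adjusted p = 0.0141 in the block fit).

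Several further genes rose that belong to none of these groups. Cnn3, an actin-binding calponin, had the largest such rise, with 58.04 and 66.8 on the medium arrays against 197 and 235 on the IFN-γ arrays and a log2 difference of 1.79 (SE 0.18, adjusted p = 0.00414). It was the single call among 24 genes of the actin cytoskeleton and adhesion, whose median was -0.06. Mxd1, a partner of MAX that opposes MYC, read 149 and 127 on the medium arrays against 292 and 229.9 on the IFN-γ arrays, a difference of 0.91 (SE 0.14, adjusted p = 0.0408). No other of 10 MAX network genes passed in either fit, and Myc differed by 0.27 (adjusted p = 1). Inpp5b, a phosphatase of phosphoinositides, read 593 and 587 on the medium arrays against 943 and 996 on the IFN-γ arrays, a difference of 0.72 (SE 0.10, adjusted p = 0.0294), and its other probe set differed by 0.65 (SE 0.11, adjusted p = 0.0542, and adjusted p = 0.00829 in the block fit).

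Pvr, an adhesion molecule that ligates receptors of natural killer and T cells, read 38.1 and 36.3 on the medium arrays against 66.1 and 67.5 on the IFN-γ arrays, a log2 difference of 0.84 (SE 0.11, adjusted p = 0.0137). Its medium arrays were below the antisense controls. Ikzf1, a lymphoid transcription factor, read 35.5 and 35.6 on the medium arrays against 68.5 and 71.9 on the IFN-γ arrays, a difference of 0.98 (SE 0.10, adjusted p = 0.00496), and its medium arrays at 16 hours, 83.7 and 89.1, were above both IFN-γ arrays of 4 hours. The 3 called probe sets with no gene name in the annotation rose by 2.15, 1.18 and 0.84. Fgl2 passed with the block alone, at 57.1 and 66.4 on the medium arrays against 120 and 143 on the IFN-γ arrays. Its difference was 1.09 (SE 0.24, adjusted p = 0.179, and adjusted p = 0.00212 in the block fit), and 1.40 at 16 hours. Its dimmer probe set, below the antisense controls, differed by 0.02. Ifi202b, also with the block alone, differed by 0.98 (SE 0.22, adjusted p = 0.181, and adjusted p = 0.00158 in the block fit).

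Of 15 costimulatory and checkpoint genes 0 passed without the block and 2 were higher with it, against 0.861% of all genes. Cd40, through which helper T cells license dendritic cells, read 304 and 287 on the medium arrays against 493 and 443 on the IFN-γ arrays, a log2 difference of 0.66 (SE 0.13, adjusted p = 0.116, and adjusted p = 0.0229 in the block fit). In medium it was at 127 and 138 after 16 hours, so both medium arrays at 4 hours already lay above the later ones. Cd86, a ligand of CD28, read 265 and 301 on the medium arrays against 355 and 448 on the IFN-γ arrays, a difference of 0.50 (SE 0.16, adjusted p = 0.601, and adjusted p = 0.0287 in the block fit), and its dimmer probe set differed by 0.63 (adjusted p = 0.285, and adjusted p = 0.0112 in the block fit). Cd80 differed by 0.34 (adjusted p = 1, and adjusted p = 0.157 in the block fit) and the adhesion molecule Icam1 by 0.36 (adjusted p = 1, and adjusted p = 0.516 in the block fit). No probe set was named Cd274 here.

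Few maturation genes and no cytokine passed. Among 17 genes of dendritic cell maturation, Tnfaip3, an inhibitor of NF-κB signalling, was higher with the block (103 and 98.7 on the medium arrays against 166 and 158 on the IFN-γ arrays, difference 0.69, SE 0.13, adjusted p = 0.112, and adjusted p = 0.0163 in the block fit), and 0 passed without it. The probe sets of Cd83 disagreed: its brightest differed by -0.15 and passed in neither fit. Its dimmer one read 281 and 280 on the medium arrays against 416 and 428 on the IFN-γ arrays. That was a difference of 0.59 (SE 0.14, adjusted p = 0.237, and adjusted p = 0.0301 in the block fit). Fscn1, which bundles actin in mature dendritic cells, read 4116 and 4013 on the medium arrays against 3121 and 3101 on the IFN-γ arrays, a difference of -0.39 that missed the threshold in both fits (adjusted p = 0.316, and adjusted p = 0.0747 in the block fit). None of 22 cytokine genes passed in either fit. Il12b, a subunit of interleukin 12, read 52.97 and 50.04 on the medium arrays against 46.96 and 50.8 on the IFN-γ arrays, at the antisense level. Il18bp, a soluble inhibitor of interleukin 18, read 178 and 176 on the medium arrays against 235 and 237 on the IFN-γ arrays (difference 0.42, adjusted p = 0.698), and Il1b read 298 and 325 on the medium arrays against 211 and 242 on the IFN-γ arrays (difference -0.46, adjusted p = 0.757, and adjusted p = 0.0576 in the block fit). Nos2, the inducible nitric oxide synthase, stayed below the antisense controls at 23.2 and 20.6 on the medium arrays against 23.7 and 22.02 on the IFN-γ arrays. Among 15 caspase and death receptor genes, the inflammatory caspase Casp4 was higher with the block, at 93.5 and 106 on the medium arrays against 174 and 196 on the IFN-γ arrays and a difference of 0.89 (SE 0.17, adjusted p = 0.111, and adjusted p = 0.00152 in the block fit). Daxx, a nuclear protein that binds the death receptor Fas, was the other higher member, at 0.48 (SE 0.11, adjusted p = 0.181, and adjusted p = 0.0317 in the block fit), and Tnfrsf1b, given below, was lower with the block. Ncf1, a subunit of the phagocyte oxidase, differed by 0.55 (SE 0.14, adjusted p = 0.307, and adjusted p = 0.0382 in the block fit), and its IFN-γ arrays overlapped the medium arrays of 16 hours.

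No gene fell without the block, and the smallest adjusted p of a fall was 0.0542, on a dim probe set of Wnk1 whose brightest differed by -0.25 (adjusted p = 1). With the block 18 of 8251 genes (0.218%) were lower. The list of macrophage markers had 0 of 12 lower in either fit and a median difference of 0.00. Lyz2, the lysozyme of myeloid cells, read 698 and 756 on the medium arrays against 407 and 412 on the IFN-γ arrays, a log2 difference of -0.83 (SE 0.18, adjusted p = 0.172, and adjusted p = 0.00928 in the block fit). Cd14, the coreceptor for lipopolysaccharide, read 612 and 704 on the medium arrays against 385 and 428 on the IFN-γ arrays, a difference of -0.69 (SE 0.13, adjusted p = 0.106, and adjusted p = 0.00335 in the block fit). Both genes had IFN-γ arrays below all 4 medium arrays of 4 and 16 hours, as did 17 of the 22 lower probe sets. All 22 lay below both medium arrays of 4 hours, so only the medium arrays of 16 hours add to this count. Its share over all probe sets is not given here. Tgfbi, a matrix protein made by macrophages, read 269 and 294 on the medium arrays against 164 and 171 on the IFN-γ arrays, a difference of -0.75 (SE 0.16, adjusted p = 0.177, and adjusted p = 0.00953 in the block fit). Csf1r, the receptor for macrophage colony-stimulating factor, read 284 and 245 on the medium arrays against 169.7 and 148 on the IFN-γ arrays, a difference of -0.73 (SE 0.15, adjusted p = 0.148, and adjusted p = 0.0319 in the block fit). The dimmer probe sets of Csf1r, Tgfbi and Lyz2, all below the antisense controls in medium, differed by -0.02, 0.14 and -0.25. Raly, an RNA-binding protein, read 321 and 284 on the medium arrays against 198 and 168 on the IFN-γ arrays, a difference of -0.73 (SE 0.14, adjusted p = 0.106, and adjusted p = 0.0194 in the block fit). The lowest difference belongs to a dimmer probe set of Actb, which read 323 and 159 on the medium arrays against 153 and 31.5 on the IFN-γ arrays, with arrays of a group far apart and a difference of -1.70 (SE 0.64, adjusted p = 0.911, and adjusted p = 0.0295 in the block fit), while the brightest one tested differed by -0.34 (adjusted p = 1). The array controls for Actb, outside the tests, were far brighter. The 3' control read 6944 and 6999 on the medium arrays against 6604 and 6483 on the IFN-γ arrays. The 5' control read 3405 and 3182 on the medium arrays against 4495 and 3933 on the IFN-γ arrays.

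The other genes lower with the block were of several kinds. Of 14 pattern recognition and uptake receptors 4 were lower with the block: Cd14, Cd93, and the lectins Clec4d and Clec4a2, the last below the antisense controls in both groups. The share lower with the block was 0.218% over all genes. Cd93 differed by -0.46 (SE 0.11, adjusted p = 0.225, and adjusted p = 0.0492 in the block fit) and Clec4a2 by -0.61 (SE 0.13, adjusted p = 0.15, and adjusted p = 0.0194 in the block fit). Clec4d read 129.9 and 149 on the medium arrays against 80.1 and 97.5 on the IFN-γ arrays, a log2 difference of -0.66 (SE 0.24, adjusted p = 0.872, and adjusted p = 0.0356 in the block fit). Sirpa, an inhibitory receptor, read 288 and 294 on the medium arrays against 186 and 199.9 on the IFN-γ arrays, a difference of -0.59 (SE 0.18, adjusted p = 0.497, and adjusted p = 0.0492 in the block fit), and its other probe sets differed by -0.02 and 0.06. The transcription factor Cebpa read 116 and 118 on the medium arrays against 72.5 and 89.1 on the IFN-γ arrays (difference -0.54, SE 0.13, adjusted p = 0.238, and adjusted p = 0.0262 in the block fit), the tumour necrosis factor receptor Tnfrsf1b differed by -0.57 (SE 0.14, adjusted p = 0.265, and adjusted p = 0.0138 in the block fit) and the inhibitory Fc receptor Fcgr2b by -0.52 (SE 0.17, adjusted p = 0.601, and adjusted p = 0.0407 in the block fit). Erf, a transcriptional repressor of the ETS family, differed by -0.46 (SE 0.12, adjusted p = 0.364, and adjusted p = 0.0492 in the block fit), and its dimmer probe set by 0.03. Of 10 Fc receptors and their adaptors 8 had both IFN-γ arrays below both medium arrays, against 19.2% of all genes, with a median of -0.29. Tyrobp, an adaptor with an ITAM that serves other receptors of myeloid and natural killer cells, read 939.9 and 851 on the medium arrays against 672 and 623 on the IFN-γ arrays, a difference of -0.47 (SE 0.12, adjusted p = 0.308, and adjusted p = 0.0778 in the block fit). Of 19 lysosomal genes 13 lay wholly below, with a median of -0.25, and Lyz2 alone passed with the block.

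Markers of the labelled cell type were present in both groups. Cd8a read 454 and 469.9 on the medium arrays against 477 and 542 on the IFN-γ arrays and Batf3, a factor of the same lineage, 466 and 454 on the medium arrays against 476 and 462 on the IFN-γ arrays, and of 11 CD8+ dendritic cell markers Irf8 alone passed, with the block. Xcr1, Itgae and Zbtb46 lay below the antisense controls in both groups. The summed intensity of these 11 was 4365 and 4564 on the medium arrays and 4805 and 5051 on the IFN-γ arrays. Irf8 is part of this sum, at 1043 and 1047 on the medium arrays against 1594 and 1591 on the IFN-γ arrays. Its own rise exceeded that of the sum in both numbered pairs. The remaining CD8+ dendritic cell markers were therefore not higher in sum with IFN-γ, and the median log2 difference of the 11 was 0.01. Markers of other cells were present too and differed a little. The 10 T cell markers summed to 2482 and 2301 on the medium arrays against 2337 and 2185 on the IFN-γ arrays. Of these, 0 lay below the antisense controls in both groups and 0 were called in either fit. The 12 macrophage markers summed to 876 and 905 on the medium arrays against 840 and 863 on the IFN-γ arrays of 4 hours, with 4 of 12 below the antisense controls in both groups and 0 called in either fit. In medium at 16 hours they summed to 2273 and 2462. The 10 B cell markers summed to 3422 and 3032 in medium against 2696 and 2586, and all 10 were lower on average, with 2 below the antisense controls and 0 called. Over all genes, 4407 of 8251 were lower on average. The 11 neutrophil markers summed to 5457 and 5502 against 4828 and 5032, again all 11 lower on average, with 1 below the antisense controls and 0 called. The 5 markers of CD4+ and other dendritic cells summed to 859 and 901 against 735 and 806, with Sirpa and Clec4a2 lower with the block. The 7 natural killer cell markers summed to 505 and 509 against 609.5 and 598, with 3 below the antisense controls and Klrk1 higher with the block (difference 0.49, SE 0.12, adjusted p = 0.223, and adjusted p = 0.0492 in the block fit). These lists have no marker at 0, since the intensities have none. The part of these cells in the differences above was not tested.

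Promoters of the called genes were read for the elements named above, because many of the members that moved together are known targets of interferon. RefSeq (GRCm38.p6, from the strain C57BL/6J, while the cells came from DBA/2J) gave the 250 bases before and 50 after the start site for 22 of the 26 genes. A GAS match was taken as TTCNNNGAA and an ISRE match as GAAA, any 2 bases and GAAA again, on both strands. A GAS match lay in 6 of the 22 (27.3%), against 8.50% of the 6576 array genes with a promoter, and an ISRE match in 9 (40.9%), against 3.89%. Either lay in 12 (54.5%), against 11.8%. A match is a description of letters and not a binding site, and no test was made. The stretches below are the 120 bases just before the start site, 5' to 3' on the strand of the gene, with matches in capitals; that of Cxcl10 runs from 250 to 131 bases before it. They were chosen as the regulator Irf1, the inhibitor Socs1, GTPases with a match in these 120 bases, and the chemokines called.
Irf1 (chr11:53769894-53770013, plus strand): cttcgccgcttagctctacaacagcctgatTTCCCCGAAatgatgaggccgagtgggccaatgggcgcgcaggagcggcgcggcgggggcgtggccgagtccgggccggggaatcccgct
Socs1 (chr16:10785537-10785656, minus strand): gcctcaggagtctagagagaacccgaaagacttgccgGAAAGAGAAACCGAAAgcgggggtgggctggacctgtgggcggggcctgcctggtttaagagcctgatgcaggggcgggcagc
Igtp (chr11:58199436-58199555, plus strand): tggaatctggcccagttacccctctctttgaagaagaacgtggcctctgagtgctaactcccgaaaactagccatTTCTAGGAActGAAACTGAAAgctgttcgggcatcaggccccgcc
Irgm2 (chr11:58214857-58214976, plus strand): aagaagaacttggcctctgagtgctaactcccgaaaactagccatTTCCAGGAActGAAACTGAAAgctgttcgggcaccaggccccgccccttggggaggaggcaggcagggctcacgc
Irgm1 (chr11:48871421-48871540, minus strand): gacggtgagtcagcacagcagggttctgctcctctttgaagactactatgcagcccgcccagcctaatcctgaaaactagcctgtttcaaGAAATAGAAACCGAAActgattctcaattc
Gbp2 (chr3:142620543-142620662, plus strand): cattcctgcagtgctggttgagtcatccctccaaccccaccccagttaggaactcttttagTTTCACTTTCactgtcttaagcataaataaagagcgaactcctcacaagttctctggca
Gbp7 (chr3:142530216-142530335, plus strand): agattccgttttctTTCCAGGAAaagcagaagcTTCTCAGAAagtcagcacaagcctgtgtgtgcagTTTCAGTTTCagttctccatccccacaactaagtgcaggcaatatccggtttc
Cxcl10 (chr5:92349020-92349139, minus strand): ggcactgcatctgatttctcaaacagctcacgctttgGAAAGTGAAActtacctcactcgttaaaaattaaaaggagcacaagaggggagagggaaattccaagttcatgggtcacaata
Cxcl9 (chr5:92328080-92328199, minus strand): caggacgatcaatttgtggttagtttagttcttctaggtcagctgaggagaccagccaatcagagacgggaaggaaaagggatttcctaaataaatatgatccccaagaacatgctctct

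The stretch of Irf1, which rose by 0.84 on the log2 scale, holds a GAS match and no ISRE match. Igtp and Irgm2, with differences of 1.63 and 1.79, share the arrangement of a GAS match, 2 further bases and an ISRE match, and they are the 2 of the 6576 genes that have it. They belong to 1 family, so the pair is not a set of independent examples. Irgm1, Socs1 and Trim21 hold a pair of ISRE matches that overlap each other, which 11 of the 6576 genes do. A GAS match overlapping an ISRE match occurs in 5 of the 6576 genes and in 0 of the 22. Gbp7 holds 2 GAS matches and 1 ISRE match. Cxcl9, with the largest rise, has neither in its window, nor have Ubd, Cnn3, Nampt, Mxd1, Pnp, Psap, Lcp1, Inpp5b and Upp1, and no match says only that these letters are absent from these 300 bases.

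The effect at 4 hours was set against that at 16 hours through the difference of the 2 effects. Without the block 0 of 12422 probe sets (0%) passed, with 353 at an unadjusted p under 0.05, and with it 30 (0.242%) did, all with a smaller or more negative effect at 16 hours. Cxcl10 was among them: it read 41.6 and 41.3 on the medium arrays against 65.6 and 88.8 on the IFN-γ arrays at 16 hours, and the difference of effects was -1.47 (SE 0.22, adjusted p = 0.269, and adjusted p = 0.00948 in the block fit). For Cxcl9 the difference was -0.73 (SE 0.32, adjusted p = 1, and adjusted p = 0.341 in the block fit), at 18.4 and 19.8 on the medium arrays against 153 and 266 on the IFN-γ arrays. Mxd1, which rose at 4 hours, read 145 and 145 on the medium arrays against 150.1 and 152 on the IFN-γ arrays at 16 hours, a difference of -0.85 (SE 0.20, adjusted p = 0.642, and adjusted p = 0.0712 in the block fit). Irf1, Gbp2, Gbp2b, Socs1, Samhd1 and Upp1 had differences of effects between 0.01 and 0.38, none past the threshold in either fit. The SD of the difference between replicate arrays, over probe sets, was 0.17 and 0.176 in medium and IFN-γ at 4 hours and 0.241 and 0.311 at 16 hours, so the later effects are the less precise.

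**Figure D4:**
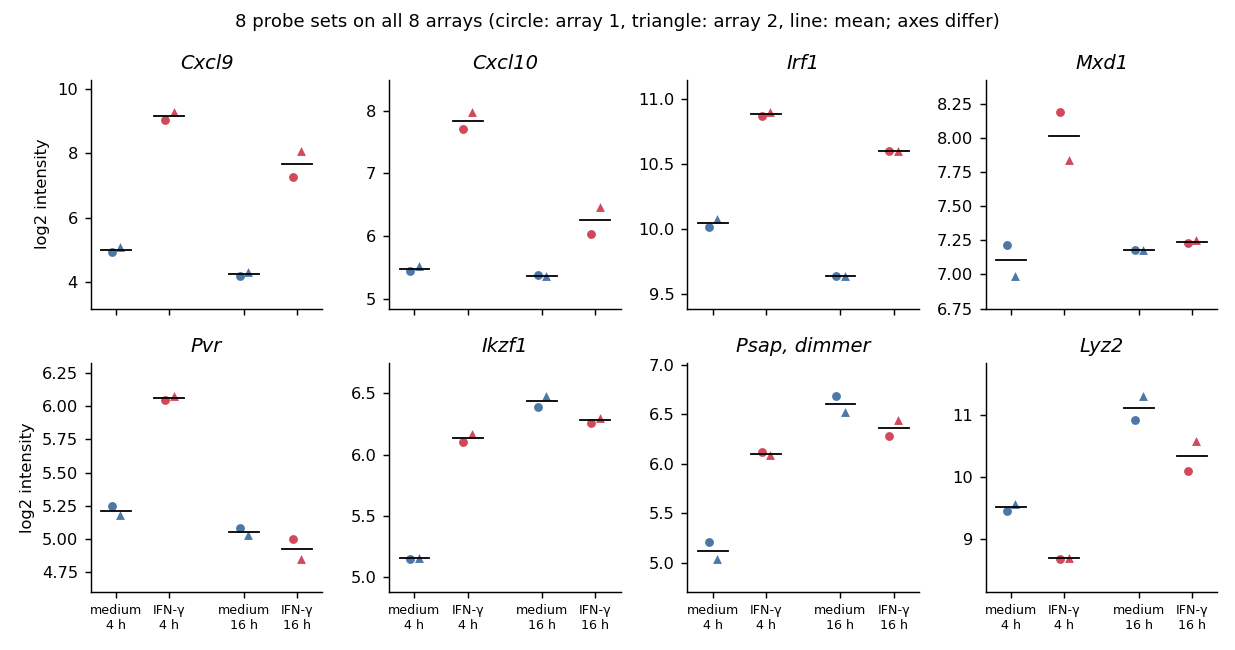
Log2 intensity of 8 probe sets on all 8 arrays, blue for medium and red for IFN-γ, at 4 and 16 hours, with lines at group means and an axis of its own in each panel. Cxcl9 and Irf1 are high with IFN-γ at both times, the IFN-γ arrays of Mxd1 and Pvr stand above medium at 4 hours and near it at 16 hours, Ikzf1 and the dimmer probe set of Psap are lowest in medium at 4 hours, and Lyz2 is higher at 16 than at 4 hours in either condition.

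Some rises stood on a dimmer probe set of a gene whose brightest did not move. Of the 28 named probe sets called without the block, 5 (17.9%) were not the brightest of their gene, beside 23.8% of all named probe sets, and for Psap, Lcp1 and Upp1 the brightest was not called. The dimmer probe set of Psap, which encodes the precursor of the saposins of lysosomes, read 37.1 and 32.8 on the medium arrays against 69.6 and 68.3 on the IFN-γ arrays, a log2 difference of 0.98 (SE 0.12, adjusted p = 0.0131), and 103 and 91.8 in medium at 16 hours. Its brightest read 2686 and 2928 on the medium arrays against 2287 and 2348 on the IFN-γ arrays, a difference of -0.28 (adjusted p = 1). Lcp1, an actin-bundling protein of leukocytes, showed the same split, with 0.84 (SE 0.11, adjusted p = 0.0188) on the dimmer and -0.09 (adjusted p = 1) on the brightest. The second probe set of Ikzf1 differed by 0.02.

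Among the named probe sets that were higher with the block alone, 34 of 82 (41.5%) were not the brightest of their gene. For 26 of these, of 24 genes, the brightest was not called, and the median log2 difference was 0.59 on the called probe sets and -0.01 on the brightest of the same genes. In medium, 23 of the 26 were higher at 16 than at 4 hours (median 0.52), beside 5 of the 26 brightest (median -0.28); these values and the 4-hour differences share the medium arrays of 4 hours. The largest was that of Suz12, a subunit of the Polycomb complex that methylates histone H3, which read 19.97 and 29.6 on the medium arrays against 52.3 and 78.5 on the IFN-γ arrays on the called probe set, a difference of 1.40 (SE 0.29, adjusted p = 0.15, and adjusted p = 2.11e-05 in the block fit), and differed by 0.19 on its brightest (adjusted p = 1). Immunoglobulin probe sets, 59 with a name, held 5 that were higher with the block and 0 without. Over all probe sets 135 of 12422 (1.09%) were higher with the block. The median difference of the 59 was 0.10. In medium they were higher at 16 than at 4 hours by a median of 0.40, beside 0.05 over all probe sets. Beside these stand the raised 3' to 5' ratios of the medium arrays at 4 hours, whose part was not tested.

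**Figure D5:**
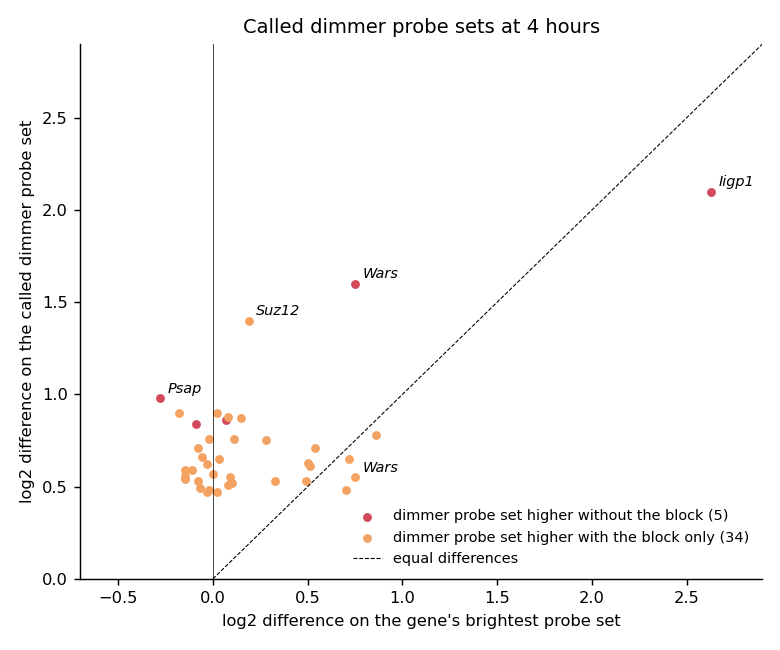
Each point is a dimmer probe set called higher at 4 hours, with its log2 difference on the y axis and that of the brightest probe set of the same gene on the x axis; the dashed line marks equal differences. Most points lie near 0 on the x axis, and those of Iigp1 and Wars lie to its right.

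Across the 17 other fits, 6 of the 23 genes called on their brightest probe set were called in all: Cxcl9, Cxcl10, Iigp1, Irgm2, Igtp and Ubd. The other 17 lost their call when at least 1 array was left out, Cnn3 in 2 of 8 such fits and Irf1, Irgm1, Gbp2 and Pnp in 4 of 8. None of the 23 changed direction in any fit.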

How the data were processed

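RNA of CD8+ dendritic cells was measured on 8 arrays of the type MG-U74Av2, 2 in each of 4 groups. The authors deposited 1 linear intensity per probe set and array (2.65 to 12523.46), made with RMA per the submitters' processing notes, which give no version here, and log2 was taken with no added constant. The 66 array controls among 12488 probe sets did not enter. Of the remainder, 10833 have 1 gene symbol in the platform annotation, 396 have several and 1193 are not listed; 10817 symbols found their gene number in RefSeq (GRCm38.p6). A gene is read on its brightest probe set by the mean over the 8 arrays.

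The groups were compared with limma 3.58.1 in R 4.3.3: 4 group means over all 8 arrays, the contrast IFN-γ minus medium at 4 hours, and Benjamini-Hochberg adjustment over 12422 probe sets, two-sided, at 0.05. The replicate number of the titles was also fitted as a block. Deviations of same-numbered arrays correlated between all pairs of groups (0.367 to 0.74, and 0.587 between the 4-hour groups), so the numbers were taken to pair the arrays, on the values alone, since no label says what they mark. The fits were tested on simulated data with independent noise on each array and no effect of the replicate number. The simulation therefore does not cover the pairing of arrays on which the block fit rests.

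Named are the genes called without the block and part of the 20 largest further rises and of the 20 largest falls called with it. Named too are members of 50 gene lists called in either fit with up to 4 others per list, and genes chosen for the question. A few other values, such as those of unnamed probe sets and of second probe sets, were added after they were seen. The comparison and the lists were chosen with earlier results of these data known. Alternatives were the normalization, an added constant of 16, a filter, the prior, the arrays fitted, the threshold and 1 mean per gene.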

Additional observations from a re-analysis of the deposited data

Results flagged for a closer look

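Among the named genes called in either fit at 4 hours, 4 had both IFN-γ arrays above both medium arrays at 4 hours and below both at 16 hours. This held for 9 of all 71 genes called higher in either fit (12.7%) and for 123 of 8251 genes (1.49%). The 71 were called for a rise at 4 hours, so the share over all genes is not a like base. All 123 are among the 1236 genes with both IFN-γ arrays above both medium arrays at 4 hours, a closer base. Beside 123 of these 1236, the 9 of 71 are not read as an excess. The other 5 of the 9, found after their values were seen, are Ptafr, Fli1, Lypla1, Igkv9-120 and Ighv1-54. For the 4 named genes, no difference between the effects passed without the replicate block. Pvr, the adhesion molecule, read 38.1 and 36.3 on the medium arrays against 66.1 and 67.5 on the IFN-γ arrays at 4 hours, and 33.8 and 32.6 on the medium arrays against 32.1 and 28.9 on the IFN-γ arrays at 16 hours, and its effect at 16 hours minus that at 4 hours was -0.97 on the log2 scale (SE 0.15, adjusted p = 0.27 by limma, or 0.0191 with the block). Ikzf1, the lymphoid transcription factor, read 35.5 and 35.6 on the medium arrays against 68.5 and 71.9 on the IFN-γ arrays at 4 hours, and 83.7 and 89.1 on the medium arrays against 76.4 and 78.9 on the IFN-γ arrays at 16 hours, a difference of effects of -1.13 on the log2 scale (SE 0.15, adjusted p = 0.159 by limma, or 0.00948 with the block). Here the medium arrays differ between the times more than the IFN-γ arrays do. Swap70, a protein of actin remodelling, read 74.7 and 65.9 on the medium arrays against 124 and 115 on the IFN-γ arrays at 4 hours, and 76.3 and 80.6 on the medium arrays against 58.7 and 74.3 on the IFN-γ arrays at 16 hours, a difference of -1.02 on the log2 scale (SE 0.19, adjusted p = 0.401 by limma, or 0.0536 with the block). Atrx, a chromatin remodeller, read 7.63 and 6.82 on the medium arrays against 10.3 and 12.9 on the IFN-γ arrays at 4 hours, and 9.91 and 11.5 on the medium arrays against 9.84 and 9.83 on the IFN-γ arrays at 16 hours, all below the antisense controls, and its difference was -0.80 on the log2 scale (SE 0.20, adjusted p = 0.729 by limma, or 0.125 with the block).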

How the results depend on the processing

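Without the block 32 probe sets were higher and 0 lower. The count of higher ones was 20 with 1 mean per gene, 84 with the 4 arrays of 4 hours fitted alone, 14 at an adjusted p under 0.01 and 18 with a log2 difference of at least 1, and 8 to 62 when 1 array was left out. It was 62 without either IFN-γ array of 16 hours, and 29 to 45 under the other settings. With the replicate block 135 were higher and 22 lower, and with the replicate block and the 4 arrays alone 299 and 134. The count of lower ones was 9 with the 4 arrays alone, 2 with a trended and robust prior, and 0 to 5 when 1 array was left out. Differences of effects below 0 numbered 30 with the replicate block and 0 without it. Fewer arrays or tests are part of these settings; the cause of the other shifts was not tested. Of the 23 genes called on their brightest probe set, 0 changed direction in these fits. Genes with differences near 0, such as Ifngr2 with its overlapping groups, can change direction when 1 array is left out. Probe sets near the antisense controls have uncertain sizes.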

Other observations

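In gene groups of general cell physiology few or no members passed at 4 hours. Of 28 genes of the cell cycle and DNA replication, 18 heat shock proteins, 14 glycolysis genes, 13 genes of the BCL2 family and 16 of oxidative stress and metallothioneins, 0 passed in either fit. Their median log2 differences were 0.04, 0.03, 0.04, -0.02 and -0.09. Of 17 genes of cholesterol synthesis and uptake 0 passed, with a median of -0.11, and 13 of them lay below 0. Over all genes, 4407 of 8251 did. Of 13 complement genes 0 passed, at a median of -0.05. Immediate early genes, 23 in number, had a median of 0.01, and 1 was higher with the block: Jun, a subunit of the factor AP-1, at 0.46 (adjusted p = 0.246 by limma, and adjusted p = 0.0492 in the block fit).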
